A study of Mus musculus with 26 samples.

Results

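Expression of the p53 gene *Trp53* and of 9 genes that p53 is known to activate was examined in mouse ES cells with and without ZFP57. The 10 genes (*Trp53*, *Mdm2*, *Cdkn1a*, *Ccng1*, *Trp53inp1*, *Bbc3*, *Bax*, *Sesn2*, *Zmat3* and *Perp*) were chosen by symbol from the 24409 genes of the expression table. All 10 passed the filter on low values that left 14612 genes for testing. *Trp53* and *Ccng1* lie on chromosome 11 and the other 8 members elsewhere, and the pair was compared with the genes of its own chromosome.

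ES cells are pluripotent cells grown from the inner cell mass of early embryos, and ZFP57 is a KRAB zinc finger protein that keeps DNA methylation at imprinted regions. Total RNA depleted of ribosomal RNA was sequenced in 3 wild-type (WT) and 2 ZFP57 KO libraries. The KO cells were zygotic mutants, homozygous for a targeted disruption of coding exons 4 and 5 of *Zfp57*. Both groups were untreated male cells on the C57BL/6J background, derived from single embryos and kept in 2i/LIF medium with passage numbers matched. The labels state that each line was karyotyped and do not give the outcome. Nothing in the labels says which libraries came from separate cultures beyond their numbers, so p-values measure the spread between these libraries.

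p53 is a transcription factor that is stabilized after DNA damage and other stress and then switches on genes of cell cycle arrest, apoptosis, DNA repair and metabolism. Its level is held down by MDM2, the ubiquitin ligase that is itself a p53 target and so closes a feedback loop. In mouse ES cells p53 is abundant without damage, and much of its regulation acts on the protein, which was not measured here. It binds DNA as a tetramer on a pair of adjacent half-sites of 10 bases.

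The values are FPKM, fragments normalised for the length of the transcript and the depth of the library. A difference is KO minus WT on the scale of log2(FPKM + 0.1), given with its standard error (SE) and the limma p-value adjusted over all 14612 tested genes. A gene was called higher or lower at an adjusted p under 0.05. The steps between low values of short genes put the libraries at about 50800000 to 58500000 fragments. *Zfp57* itself stood at 75.9, 72.3 and 70.6 FPKM in WT and at 19 and 21.6 in KO, and the table does not tell the disrupted exons from the others. The difference was -1.84 ± 0.064 (SE, limma, adjusted p = 0.000234). Of the 8 ES cell markers, all averaged at least 10 FPKM, and their sum was 922 to 948 FPKM in WT and 1005 to 1073 in KO. Of them 4 were called, all higher, *Klf4* by 0.74, *Tfcp2l1* by 0.60, *Esrrb* by 0.42 and *Pou5f1* by 0.27, where 41.1% of all tested genes were called, 18.8% higher and 22.3% lower. Of the fibroblast markers, 3 of 7 were listed at 0 in all 5 libraries and 6 averaged under 0.1 FPKM. Primitive endoderm markers summed to 0.77 to 0.93 FPKM in WT and 1.12 to 1.44 in KO, and 1 of 4 tested was called, *Sox7*, higher at 0.48 to 0.90 FPKM in KO against 0.09 to 0.15 in WT, while the median of the list was -0.17. Trophectoderm markers summed to 16.8 to 18.9 FPKM in WT and 16.4 to 17.8 in KO, most of it *Tfap2c*, which was called lower (15.1 to 17.1 FPKM in WT and 11.1 to 13.2 in KO). Below it *Eomes* rose from 0.38 to 0.60 FPKM in WT to 2.13 and 2.40 in KO (2.00, limma, adjusted p = 0.000801), and *Krt8* from 0.56 to 0.66 to 1.73 and 2.13 (1.504, adjusted p = 0.000867). With *Tfap2c* they made 3 of 5 tested markers called, with a median of 0.73. Single markers are named here with their values known. The part of the lists in the results was not tested.

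The letters of the p53 site were looked for first, as the sequence through which p53 binds DNA. Within 3000 bases on each side of a gene start on mm10, pairs of the p53 half-site were sought on both strands, with no bases between the half-sites, both 4-base cores intact and at most 2 mismatches elsewhere in the 20 bases. Such a pair stood near 4 of the 10 members, *Cdkn1a*, *Ccng1*, *Zmat3* and *Perp*, and near 3.61% of 20512 protein-coding genes. At most 1 mismatch was met by 3 members and 0.775% of genes, and no mismatch by 1 member and 0.112% of genes. The pairs are shown on the strand of their gene, with the cores in capitals.
*Cdkn1a*, chr17:29090928-29090947, intergenic: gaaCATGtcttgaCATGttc
*Ccng1*, chr11:40754936-40754955, intronic: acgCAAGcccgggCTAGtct
*Zmat3*, chr3:32364331-32364350, intronic: aaaCAAGcccaggCATGtct
*Perp*, chr10:18843034-18843053, intergenic: attCTAGcccaggCTTGccc
*Perp*, chr10:18848017-18848036, intronic: gggCAAGctctggCATGtca

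The *Zmat3* pair, which begins 1315 bases into the gene, had 0 mismatches. That of *Ccng1* began 354 bases into the gene and that of *Cdkn1a* at -51 from the first RefSeq start, each with 1 mismatch. Both *Perp* pairs had 2 mismatches and began at -2037 and 2946 from the start. A match of letters is a description and not a measured binding site.

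The members spanned a wide range of levels, and their order was nearly the same in WT and KO cells. *Trp53* was the most abundant, at 113 FPKM in the WT mean, above 98.2% of tested genes. *Ccng1*, an atypical cyclin that acts with the phosphatase PP2A on MDM2, followed at 53.5 FPKM. *Trp53inp1*, a stress protein that promotes p53 activity and autophagy, averaged 35.7 FPKM in WT, and *Mdm2* 31.9. *Bax*, the pore-forming BCL2 family protein, stood at 26.3 FPKM, and *Cdkn1a*, which encodes the cell cycle inhibitor p21, at 18.8. *Sesn2* (sestrin 2), an inhibitor of mTORC1 signalling under stress, averaged 14.3 FPKM. *Zmat3*, a zinc finger RNA-binding protein, averaged 9.46 FPKM. The apoptosis gene *Bbc3*, which encodes PUMA, averaged 1.49 FPKM and *Perp*, a desmosomal membrane protein linked to apoptosis, 1.40. *Bbc3* and *Perp* overlapped in their WT values, at 1.35 to 1.69 and 1.29 to 1.58 FPKM, and were the pair that changed places in KO. Per library, the lowest value of a member rested on an estimated 120 fragments for *Perp*, 190 for *Bbc3* and 1200 or more for the others. The counting SD at those lowest values was 9.0% for *Perp* and 7.3% for *Bbc3*.

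**Figure D1:**
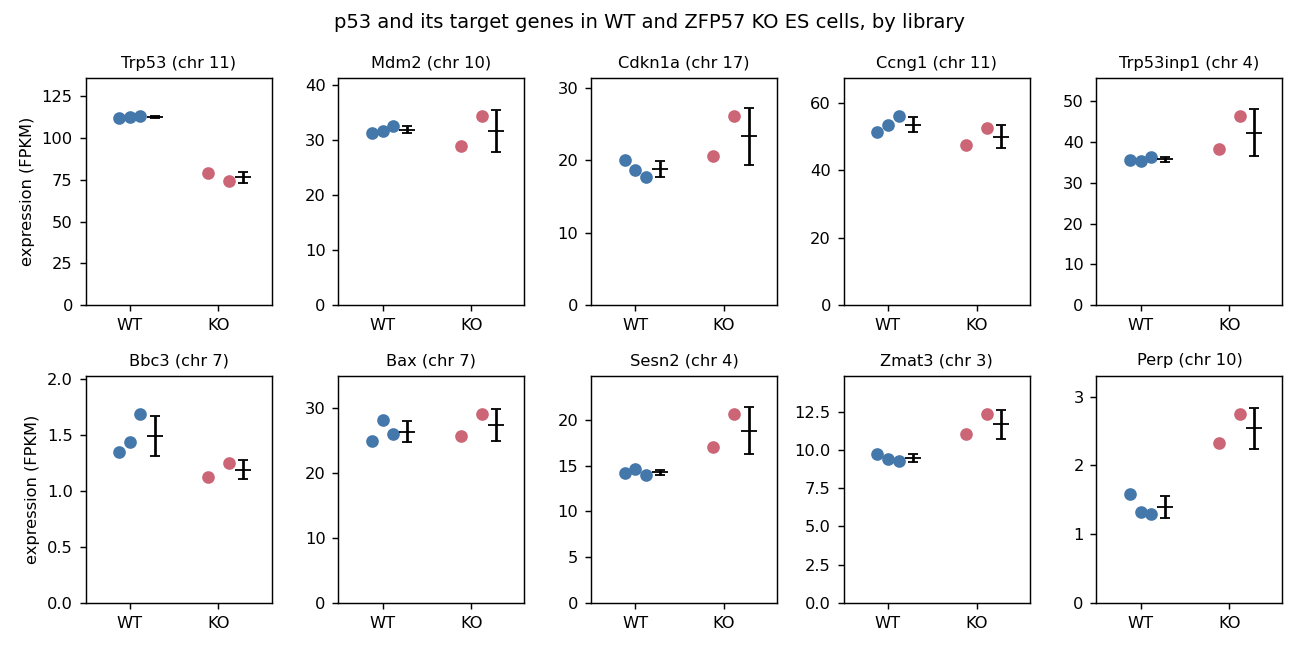
Expression (FPKM, linear axis from 0) of the 10 members in each of the 3 WT and 2 ZFP57 KO libraries, with the mean and SD of each group beside the points. *Trp53* is lower in both KO libraries, *Sesn2*, *Zmat3* and *Perp* are higher in both, and the KO libraries lie farther apart than the WT libraries for several targets.

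*Trp53* was lower in ZFP57 KO cells, and 3 of its 9 targets, *Sesn2*, *Zmat3* and *Perp*, were higher. In all 4 the KO libraries lay outside the range of the WT libraries. The call was made for 40.0% of the members against 41.1% of all tested genes, so the members were called about as often as any gene. Calls in the higher direction took 18.8% of tested genes and calls in the lower direction 22.3%. KO libraries did not overlap WT libraries in 7 of 10 members, with 5 above and 2 below WT, against 63.4% of all genes, 30.3% above and 33.1% below. An exact permutation test of 3 against 2 libraries cannot go below p = 0.1, so single genes rest on the fit over all genes.

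*Trp53* stood at 112, 113 and 113 FPKM in WT and at 79.1 and 74.4 in KO. The WT libraries were nearly equal, and both KO libraries lay far below them. The KO mean of 76.8 ± 3.28 FPKM (SD, n = 2) was 68.1% of the WT mean of 113 ± 0.390 (SD, n = 3). In such bulk samples fewer cells with a transcript and less of it per cell cannot be told apart. The difference was -0.56 ± 0.039 (SE, limma, adjusted p = 0.000447). RefSeq lists a *Trp53* pseudogene on chromosome 17, and how fragments shared with it were assigned is not given in the sources used here.

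*Mdm2*, the main inhibitor of p53, stood at 31.4, 31.8 and 32.6 FPKM in WT and at 28.9 and 34.4 in KO. KO 1 lay below all WT libraries and KO 2 above them. The difference was -0.017 ± 0.074 (SE, limma, adjusted p = 0.873), and it was 0.11 without KO 1 (adjusted p = 0.124) and -0.14 without KO 2 (adjusted p = 0.0726).

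Of the members that act in cell cycle arrest, *Cdkn1a* stood at 19.99, 18.7 and 17.7 FPKM in WT and at 20.5 and 26.1 in KO. KO 1 lay just above the highest WT library, and KO 2 well above it. The difference was 0.30 ± 0.11 (SE, limma, adjusted p = 0.0659) and did not pass the threshold, which it did without KO 1, at 0.47 (adjusted p = 0.0148). Without KO 2 it was 0.13 (adjusted p = 0.278).

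*Ccng1* stood at 51.3, 53.2 and 55.9 FPKM in WT and at 47.4 and 52.3 in KO. The groups overlapped, with KO 2 inside the WT range. The difference was -0.10 ± 0.058 (SE, limma, adjusted p = 0.211). It was -0.031 without KO 1 and -0.17 without KO 2, called in neither.

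*Sesn2* stood at 14.2, 14.6 and 14.0 FPKM in WT and at 17.01 and 20.6 in KO. Both KO libraries exceeded all WT libraries. The KO mean was 132% of the WT mean, and the difference was 0.39 ± 0.083 (SE, limma, adjusted p = 0.0120). It was 0.25 without KO 2 and 0.53 without KO 1, and was called in both.

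*Trp53inp1* stood at 35.5, 35.3 and 36.4 FPKM in WT and at 38.2 and 46.3 in KO. Here too the WT libraries were close together and both KO libraries higher, KO 2 by far more. The difference of 0.24 ± 0.079 (SE, limma) lay just outside the threshold, at an adjusted p of 0.0565. It passed without KO 1, at 0.37 (adjusted p = 0.00626), with median-ratio scaling (0.0445) and with a minimum mean of 1 FPKM (0.0493). Without KO 2 it was 0.098 (adjusted p = 0.145).

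Of the apoptosis genes, *Perp* stood at 1.58, 1.33 and 1.29 FPKM in WT and at 2.33 and 2.75 in KO. Both KO libraries exceeded all WT libraries, and the KO mean was 181% of the WT mean. The difference of 0.82 ± 0.13 (SE, limma, adjusted p = 0.00463) was the largest among the members.

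*Bax* stood at 24.9, 28.1 and 26.0 FPKM in WT and at 25.7 and 29.1 in KO. The groups overlapped, and the difference was 0.056 ± 0.073 (SE, limma, adjusted p = 0.577). It was -0.034 without KO 2 and 0.15 without KO 1.

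*Bbc3* stood at 1.35, 1.44 and 1.69 FPKM in WT and at 1.13 and 1.25 in KO. Both KO libraries were below all WT libraries, as in *Trp53* and no other member. The difference of -0.30 ± 0.13 (SE, limma, adjusted p = 0.119) did not pass the threshold, and it was -0.19 with a pseudocount of 1.

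*Zmat3*, the member with the full pair of half-sites, stood at 9.74, 9.39 and 9.25 FPKM in WT and at 11.02 and 12.4 in KO. Both KO libraries were higher, and the KO mean was 124% of the WT mean. The difference was 0.30 ± 0.063 (SE, limma, adjusted p = 0.0119). It was 0.22 without KO 2 and 0.38 without KO 1. A noncoding gene, *4930429B21Rik*, overlaps the start of *Zmat3* by 177 bp on the opposite strand, and whether fragments were counted by strand is not given in the sources used here. It was listed at 0.66 to 0.86 FPKM in WT and at 0.72 and 1.24 in KO, with a difference of 0.34 ± 0.24 (SE, limma, adjusted p = 0.300).

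The sign of the difference was positive in 6 of the 8 members outside chromosome 11, with a median of 0.27 and a range of -0.30 to 0.82. Of these 8, 3 were called higher, beside 20.3% of tested genes outside chromosome 11. None of the 8 was called lower by limma, beside 18.1% of those genes, and none reached an unadjusted p under 0.05 in that direction. The median difference was 0.014 over tested genes outside chromosome 11 and -0.013 over all tested genes.

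**Figure D2:**
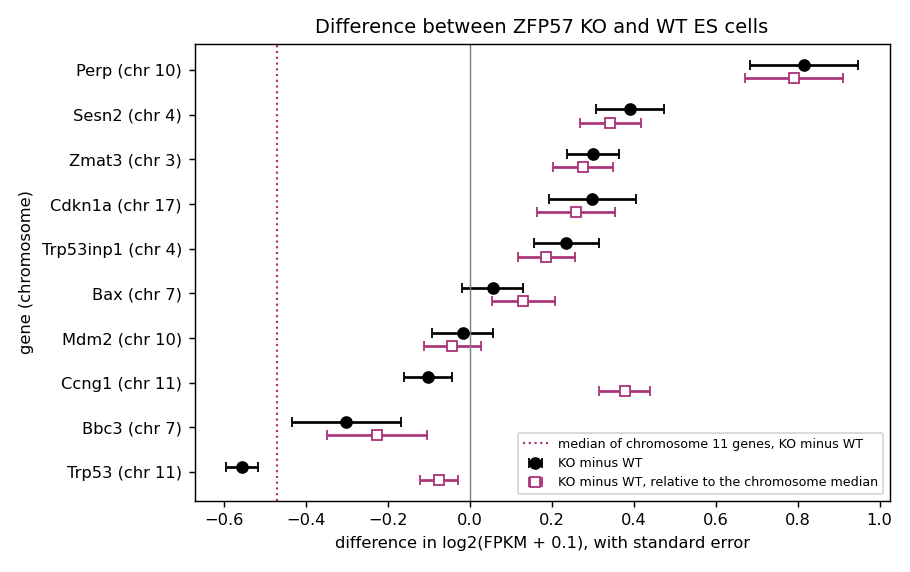
Difference between ZFP57 KO and WT cells in log2(FPKM + 0.1) for each member, with its standard error. Filled circles are as measured, and open squares are after the median level of the chromosome was subtracted in each library. The dotted line is the median difference of chromosome 11 genes, at -0.47. *Trp53* lies near that line and *Ccng1* to the right of it.

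The members on chromosome 11 have to be read beside their chromosome. Of its 1224 tested genes 89.5% were lower in KO than in WT, with a median difference of -0.47, or 72.1% of the WT level, and quartiles of -0.71 and -0.26. The median was 0.014 over the genes of other chromosomes. The gap between them, -0.49, was -0.47 in KO 1 and -0.52 in KO 2. Of the chromosome 11 genes 70.1% were called, 67.4% as lower. The size of the gap depended on low values, at -0.35 with a pseudocount of 1 and -0.39 with no filter.

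*Trp53* lay between the lower quartile and the median of its chromosome, and 38.6% of chromosome 11 genes were lower still. *Ccng1* lay above their upper quartile, and 85.5% of these genes had a lower difference than *Ccng1*. When the median of its chromosome was subtracted in each library, *Trp53* differed by -0.075 ± 0.047 (SE, limma, adjusted p = 0.251). It was -0.034 without KO 2 and -0.12 without KO 1, called in neither. With a pseudocount of 1 that value was -0.15 (adjusted p = 0.0382) and with a minimum mean of 1 FPKM -0.13 (adjusted p = 0.0289), and *Trp53* was called lower under both. On the same scale *Ccng1* was higher in KO by 0.38 ± 0.062 (SE, limma, adjusted p = 0.00587). A relative call was made for 34.2% of chromosome 11 genes, and in the higher direction for 16.7%.

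Relative to their chromosomes 4 members were called, *Ccng1*, *Sesn2*, *Zmat3* and *Perp*, all higher. Of the genes so tested 38.6% were called, 16.3% as higher. *Sesn2* was higher by 0.34 (limma, adjusted p = 0.0143), *Zmat3* by 0.28 (0.0284) and *Perp* by 0.79 (0.00455). Centring each chromosome on its median difference instead gave 5 calls, with *Trp53inp1* as the fifth, at 0.24 (adjusted p = 0.0483), against 37.3% of genes. On that scale *Trp53* differed by -0.076 (adjusted p = 0.143) and *Ccng1* by 0.38 (adjusted p = 0.0072).

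**Figure D3:**
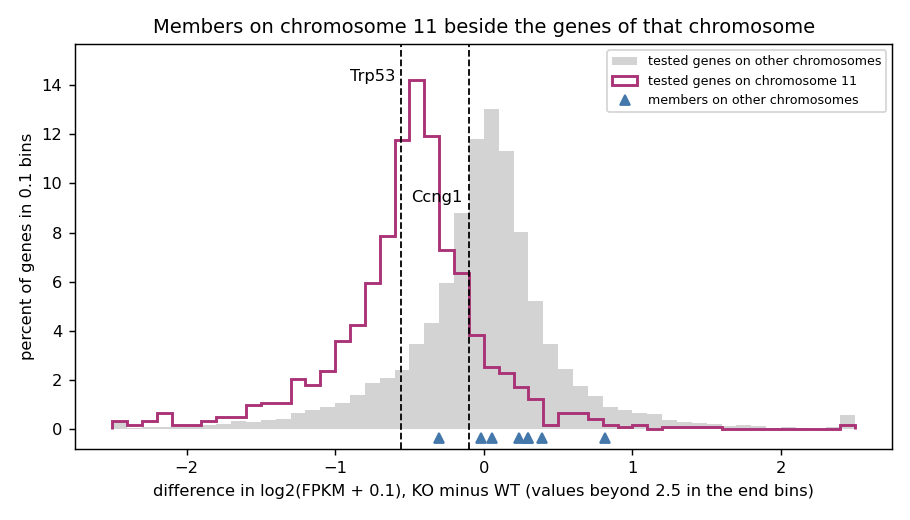
Share of tested genes by their difference between ZFP57 KO and WT cells in log2(FPKM + 0.1), for chromosome 11 (line) and all other chromosomes (grey), with *Trp53* and *Ccng1* as dashed lines and the other 8 members as triangles. The chromosome 11 genes are centred at -0.47 and the others at 0.014. *Trp53* lies between the lower quartile and the median of the chromosome 11 genes and *Ccng1* above their upper quartile, with 85.5% of them lower than *Ccng1*.

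The genes around the chromosome 11 members were lower as well. Within 500 kb of *Trp53*, 46 of 54 tested genes were lower in KO, 32 were called lower and none higher, with a median difference of -0.39. These counts are close to or below the shares over the whole chromosome, 89.5% lower and 67.4% called lower. Within the same distance of *Ccng1* there were 3 tested genes, *Mat2b*, *Hmmr* and *Nudcd2*, with differences of -0.44, -0.43 and -0.47, all called lower. All 3 were named after their values were seen. Around the other 8 members the 168 tested genes had a median difference of -0.039, with 69 of them near *Bax*. The medians differed from member to member, at -0.30 over 4 genes near *Perp*, -0.18 over 9 near *Zmat3*, -0.17 over 18 near *Cdkn1a* and 0.13 over 22 near *Bbc3*. Near *Cdkn1a* 16 of 18 were lower and 7 called lower, and near *Zmat3* 5 of 9 were called lower, with none called higher at either, where 18.1% of tested genes outside chromosome 11 were called lower. Of the tested chromosome 17 genes, where *Cdkn1a* lies, 48.9% were lower. Within 1000 kb of *Cdkn1a* 28 of 36 were lower, 12 were called lower and 3 higher. These neighbourhoods are named with their values known.

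The nearest neighbour of *Trp53* is *Wrap53*, which encodes the telomerase Cajal body protein and has antisense transcripts reported to act on *Trp53* mRNA. Both genes start from one short stretch and are read away from each other, with 97 bases between their RefSeq starts and no overlap. That stretch, chr11:69580251-69580347 on the plus strand of mm10, is shown because both genes start from it.
*Wrap53* and *Trp53* starts: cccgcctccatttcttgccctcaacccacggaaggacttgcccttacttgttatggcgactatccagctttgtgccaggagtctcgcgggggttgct

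*Wrap53* stood at 6.47, 6.05 and 6.48 FPKM in WT and at 3.86 and 3.43 in KO. Its difference of -0.78 ± 0.076 (SE, limma, adjusted p = 0.000873) was larger in size than that of *Trp53*. Relative to the chromosome *Wrap53* was still lower, by -0.30 (adjusted p = 0.0211).

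The 5 genes whose profile over the 5 libraries was nearest to that of *Trp53* were *Med1*, *Utp18*, *Cops3*, *Prkra* and *Dus1l*. They were measured by the root mean square difference between log2 profiles centred on their means, which was 0.0083 for *Med1* and 0.017 for *Dus1l*. All but *Prkra* lie on chromosome 11. Of the 50 nearest, 37 lie there, while chromosome 11 holds 8.38% of the 10664 candidates, the genes averaging 1 FPKM or more.

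The 2 KO libraries were not alike in the p53 targets. All 9 targets were higher in KO 2 than in KO 1, by 0.13 to 0.34 with a median of 0.23, whereas *Trp53* was lower in KO 2 by 0.087. The gap was largest in *Cdkn1a* at 0.34, with 0.28 in *Sesn2* and in *Trp53inp1* and 0.25 in *Mdm2*. In 7 of the 9 it exceeded the whole range of the WT libraries, and in *Bbc3* and *Perp* it did not. The margin was small in *Bax* (0.179 against 0.173) and *Ccng1* (0.142 against 0.125), and the gap of *Trp53* exceeded its WT range as well. How many of all tested genes do so was not counted, so the 7 cannot be read as particular to the targets. Over all tested genes the median gap was 0.0, and 48.3% were higher in KO 2. Relative to the WT mean, the median of the 8 members outside chromosome 11 was 0.11 in KO 1 and 0.38 in KO 2. The chromosome 11 pair had a median of -0.34 in KO 1 and -0.31 in KO 2. Of 38 other tested target genes, described next, 26 were higher in KO 2, with a median of 0.12.

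Other genes of the p53 pathway, in 6 lists of 90 genes, were then counted. Of the 86 tested genes 42 were called, 22 higher and 20 lower, or 48.8% beside 41.1% of all tested genes. The median difference over the 86 was -0.0030. In the 3 lists of further p53 targets 16 of 38 were called, or 42.1%, with 11 higher and 5 lower and a median of 0.10.

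Of the p53 targets in cell cycle arrest, 4 of 12 tested genes rose and 1 fell, with a median of 0.12, or 41.7% called beside 41.1% of all tested genes. *Gadd45a*, a growth arrest and DNA damage gene, stood at 2.65, 3.65 and 3.32 FPKM in WT and at 7.14 and 9.84 in KO, a difference of 1.37 (limma, adjusted p = 0.00218). The polo-like kinase gene *Plk2* rose by 0.99 (adjusted p = 0.0133). KO 2 carried more of this, at 15.1 FPKM against 8.79 in KO 1 and 5.26 to 6.17 in WT, and the difference was 0.60 without KO 2. The call was lost without WT 3 (adjusted p = 0.05002). *Sesn1*, another sestrin, went the other way and fell by 0.63 (adjusted p = 0.00196), from 5.62 to 6.56 FPKM in WT to 3.84 and 3.91 in KO.

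Of the p53 targets in apoptosis, 3 of 12 tested genes rose and 2 fell, with a median of 0.12, again 41.7% called. *Bid*, a BH3-only activator of BAX, stood at 5.32 to 5.76 FPKM in WT and at 12 and 12.6 in KO, a difference of 1.15 (limma, adjusted p = 0.00032). *Pmaip1*, which encodes the BH3-only protein NOXA, rose by 0.91 (adjusted p = 0.00161). *Ei24* (PIG8), an endoplasmic reticulum protein, fell by 0.65 (adjusted p = 0.000436). *Pml*, the organizer of PML nuclear bodies, fell by 0.23 (adjusted p = 0.0275), a call that was lost without WT 2, WT 3 or KO 1 (adjusted p of 0.0855 to 0.130).

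Of the p53 targets in DNA repair and metabolism, 4 of 14 rose and 2 fell, with a median of 0.029, or 42.9% called. Over all tested genes 18.8% were called higher and 22.3% lower, so these 3 lists were called about as often as any gene. *Prkab1*, a subunit of AMP-activated protein kinase, rose by 0.56 (limma, adjusted p = 0.000575). *Tigar*, a fructose bisphosphatase that lowers glycolysis, rose by 0.45 (adjusted p = 0.000654). The glutaminase gene *Gls2* fell by 0.71 (adjusted p = 0.00498). *Rrm2b*, a subunit of ribonucleotide reductase, fell by 0.27 (adjusted p = 0.0308), which was lost when any 1 of the 5 libraries was left out (adjusted p of 0.0543 to 0.122).

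Of the 12 cell cycle genes that p53 is known to lower through p21, 6 fell and 2 rose, with a median of -0.078, beside 22.3% and 18.8% of all tested genes. The cyclin gene *Ccnb2* fell by 0.32, and the mitotic checkpoint genes *Bub1* and *Cdc20* by 0.21 and 0.13, of which all 3 were named after their values were seen. The other 3 falls were in chromosome 11 genes, *Aurkb*, *Top2a* and *Birc5*, which differed by -0.48, -0.44 and -0.28. Relative to their chromosome *Aurkb* differed by -0.0039 and *Top2a* by 0.036, neither of them called, and *Birc5* was higher by 0.20 (limma, adjusted p = 0.0122). The mitotic transcription factor genes *Foxm1* and *Mybl2* rose by 0.42 (adjusted p = 0.00216) and 0.24 (adjusted p = 0.0125).

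Of the 35 regulators of p53, 8 rose and 9 fell, with a median of -0.052, or 48.6% called beside 41.1% of all tested genes. The histone methyltransferase gene *Setd8*, whose product also methylates p53, rose by 0.29 (limma, adjusted p = 0.00515). *Kat5*, an acetyltransferase (TIP60) that modifies p53, rose by 0.34 (adjusted p = 0.00483). *Trp53bp1*, the p53-binding DNA repair protein 53BP1, fell by 0.79 (adjusted p = 0.000786), from 7.55 to 8.23 FPKM in WT to 4.84 and 4.34 in KO. Of the p53 family 1 gene was tested, *Trp73*, and it rose from 0.36 to 0.54 FPKM in WT to 0.93 and 1.02 in KO (1.02, adjusted p = 0.00721). *Mdm4*, the relative of MDM2 that inhibits p53 as well, rose by 0.20 (adjusted p = 0.0287). *Trp73* and *Mdm4* were chosen after their values were seen.

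The pathway genes that share chromosome 11 were lower as well. Of the 7 tested pathway genes on chromosome 11, 5 fell and none rose, with a median of -0.34. Their share of 71.4% is close to the 67.4% of all chromosome 11 genes called lower. The fall of *Ppm1d*, the phosphatase WIP1 that switches p53 off, was 0.31 (limma, adjusted p = 0.00557), and relative to the chromosome it differed by 0.17 (adjusted p = 0.0839). *Fdxr* and *Dcxr*, which were not called, differed by -0.34 and -0.27, and by 0.14 and 0.21 relative to the chromosome, not called either. *Fdxr* was -0.20 without WT 3, still not called. Without KO 2, *Dcxr* was called lower at -0.53 (adjusted p = 0.0412), and without KO 1 it differed by -0.014 (adjusted p = 0.941). *Gadd45a*, *Bid*, *Tigar* and *Foxm1* lie on chromosome 6, where the median difference was 0.17. Relative to the chromosome they remained higher, by 1.203, 0.98, 0.28 and 0.25, all called. Other pathway genes of chromosome 6 went the other way on that scale. The regulators *Hipk2* and *Trim24*, not called before, differed by -0.35 and -0.30 and were called lower (limma, adjusted p = 0.00992 and 0.0493).

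**Figure D4:**
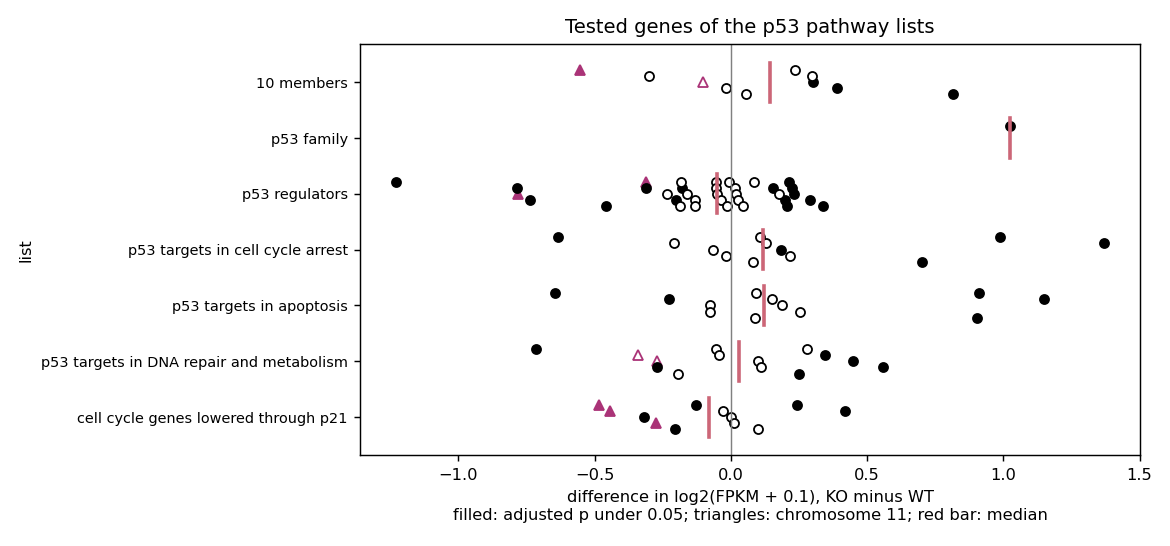
Difference between ZFP57 KO and WT cells in log2(FPKM + 0.1) for the 10 members and for each tested gene of the 6 pathway lists, 1 point a gene. Filled points have an adjusted p under 0.05, triangles are genes on chromosome 11, and the bar is the median of the list. Each list with more than 1 tested gene holds genes on both sides of 0, and the chromosome 11 genes all lie below 0.

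ZFP57 peaks were placed beside the members as a measure from another assay. The authors deposited 1423 peaks for the C57BL/6J cells, each called in at least 2 of the 3 WT ChIP-seq replicates and given without a height. *Trp53inp1* had a peak 9.2 kb downstream of its end, chr4:11183555-11183860 in mm10, in an exon of 3 of 4 RefSeq transcripts of the noncoding gene *A630034I12Rik*. It is also in a second deposited list, named for the C57BL/6J X 129aa hybrid lines, which could not be traced to a ZFP57 ChIP-seq library among the samples used here. Of its 306 bases, those at chr4:11183636-11183835 are shown on the plus strand, with the copy of the ZFP57 hexanucleotide TGCCGC, here in its reverse complement, in capitals.
Peak downstream of *Trp53inp1*: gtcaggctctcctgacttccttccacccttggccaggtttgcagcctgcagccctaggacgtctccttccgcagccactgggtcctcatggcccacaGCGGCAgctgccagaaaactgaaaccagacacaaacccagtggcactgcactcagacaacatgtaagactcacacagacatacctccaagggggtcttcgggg

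*Bbc3* followed with a peak 43.1 kb upstream and *Cdkn1a* with one 150.7 kb upstream. Peaks near *Sesn2*, *Zmat3* and *Perp* lay 430.2, 438.8 and 603.1 kb away. The distance was 658.3 kb for *Bax*, 769.2 kb for *Trp53*, 2257.4 kb for *Ccng1* and 4318.0 kb for *Mdm2*. A peak lay within 20 kb of 1 member and within 500 kb of 5, where 4.88% and 48.1% of tested genes had one. The median distance was 521 kb for members and 539 kb for tested genes. The RefSeq promoters of GRCm38, 300 bases each, held 10 entries for 7 of the members. TGCCGC stood on either strand in 2 of these 10, of *Bax* and *Bbc3*, and in 11.6% of all 32851 promoters.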

How the data were processed

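RNA-seq of 3 WT and 2 ZFP57 KO ES cell libraries was used. The authors deposited expression as FPKM per gene with 2 decimals, from paired reads of 150 bp mapped to mm10. The submitters' processing notes name FastQC 0.11.5, Trim Galore 0.2.7, BWA 0.6.2, Picard, MACS2 2.1.0 and STAR 2.5.2. Which tool counted the fragments, and with which annotation, is not given in the sources used here. The authors deposited ZFP57 peaks as other values, namely positions with no score.

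The 14612 genes averaging 0.1 FPKM or more were fitted as log2(FPKM + 0.1) with limma 3.58.1 in R 4.3.3 (eBayes with trend), KO against WT, with no covariate and with Benjamini-Hochberg adjustment. A fold change on this scale understates the change of low genes. The relative fit subtracted in each library the median level of the tested genes of the chromosome, which can shift otherwise than the median of their differences. On chromosome 7 the median difference was 0.0042, while *Bbc3* went from -0.30 to -0.23 and *Bax* from 0.056 to 0.13. Both fits were tested on simulated data with known changes. Of 24409 genes, 24261 were placed on RefSeq GRCm38. FPKM has no counts, and the fragment numbers came from steps between low values of genes under 160 bp, where 91.3 to 94.7% of values were whole multiples within 0.08 and 16.0% would be by chance.

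The members and lists were chosen with earlier results of these data known. Named were all members, *Zfp57*, *Wrap53*, tested pathway genes on chromosome 11, the 2 highest and 2 lowest called genes of each list that averaged 1 FPKM or more, genes overlapping a member and the 5 profiles nearest to *Trp53*. Other named genes were chosen after their values were seen. Alternatives covered pseudocount, filters, scaling, variance model, a replicate block, single libraries, size, centring and windows. Centring on median differences was added after the data had been seen. Other software was pysam 0.24.0, matplotlib 3.10.9, pandas 2.3.3 and numpy 2.4.6 under Python 3.11.15. KAP1, H3K9me3 and the hybrid lines' libraries were not analysed here.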

Additional observations from a re-analysis of the deposited data

How the results depend on the processing

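The fall of *Trp53* held under all 14 alternatives, at -0.60 to -0.51 with an adjusted p of 0.000209 to 0.00995, and *Ccng1* was called under none of its 14. Leaving out single libraries gave 3 to 6 members called, 4095 to 4775 genes, 27 to 39 pathway genes (27 without WT 3, against 42) and a chromosome 11 gap of -0.52 to -0.47. *Mdm2* ranged from -0.14 without KO 2 to 0.11 without KO 1, and *Bax* from -0.034 without KO 2 to 0.15 without KO 1, each with its sign turned once. A required size of at least 1 on the log2 scale left 1172 of 6002 called genes, 4 pathway genes and 0 members. The chromosome 11 gap was -0.35 with a pseudocount of 1 and -0.39 with no filter on low values. *Trp53* relative to its chromosome passed the threshold with that pseudocount, at -0.15, and with a minimum mean of 1 FPKM, at -0.13. The gap between the neighbours of members on chromosome 11 and elsewhere was -0.38 within 500 kb and -0.42 within 1000 kb. The cause of these shifts was not tested.

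WT and KO libraries share numbers 1 and 2 in the labels, and nothing in the labels gives same-numbered libraries a common origin. Their deviations had r = -0.150 and -0.153 across genes, and the crossed pairs 0.150 and 0.153, mirror images since 2 KO libraries deviate in opposite directions, so these values cannot settle the pairing. With the number as a replicate block 3012 genes, 24 pathway genes and 3 members were called, with *Zmat3* lost (adjusted p = 0.0798), as were the named genes *Mybl2*, *Pml* and *Rrm2b*. In that fit WT 3 has no KO partner and adds nothing to a difference, so each difference equals the one without WT 3. *Pml* and *Rrm2b* were also lost without WT 3 and with no block (limma, adjusted p = 0.0855 and 0.0738). For these genes the block and the loss of WT 3 cannot be told apart. *Perp* and *Bbc3* rested on an estimated 120 to 290 fragments a library, the fewest of the members.

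Over all alternatives the adjusted p ranged from 0.0726 to 0.990 for *Mdm2*, 0.0148 to 0.278 for *Cdkn1a*, 0.00626 to 0.145 for *Trp53inp1*, 0.00943 to 0.0798 for *Zmat3* and 0.0289 to 0.662 for *Trp53* relative to its chromosome. It ranged from 0.00358 to 0.05002 for *Plk2*, 0.0194 to 0.130 for *Pml*, 0.0246 to 0.145 for *Rrm2b* and 0.0412 to 0.941 for *Dcxr*. *Sesn2* and *Perp* were called under all 16 fits, before any required size. A KO library left alone was taken to vary as the other libraries do.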
